A study of Mus musculus with 6 samples.

Results

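The 10 genes examined encode the enzymes that make serine from a glycolytic intermediate and pass its carbon to folate. They are *Phgdh*, *Psat1* and *Psph* of serine synthesis, *Shmt2*, *Mthfd2*, *Mthfd2l*, *Mthfd1l* and *Aldh1l2* of mitochondrial folate metabolism, and *Shmt1* and *Mthfd1* of the cytosolic branch. They were taken by symbol from the 13809 genes of the count table, and all 10 were found. RNA-seq libraries were made from hearts of mouse embryos at embryonic day 18.5, 3 from wildtype (WT) and 3 from *Pkm1*-knockout (KO) embryos, after ribosomal RNA had been removed from the total RNA. The labels give the tissue as heart, and the study's text speaks of ventricular tissue. The KO line carries a germline deletion made with CRISPR/Cas9 in the exon that only the *Pkm1* transcript uses, so every cell of the embryo has it and no cell type is singled out. The labels give no treatment for either group, and the number of embryos behind a library is not given in the sources used here. The comparison asks how the transcripts of these enzymes stand in hearts that lack PKM1, the form of pyruvate kinase typical of adult muscle, heart and brain.

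Serine synthesis branches off glycolysis at 3-phosphoglycerate, above the step that pyruvate kinase catalyses. PHGDH oxidises this intermediate, PSAT1 adds the amino group and PSPH removes the phosphate. Serine hydroxymethyltransferases then split serine into glycine and a carbon unit on tetrahydrofolate, which the mitochondrial enzymes oxidise and release as formate, and which the cytosolic enzymes use for purines, thymidylate and methionine. In mammals *Mthfd2* and *Mthfd1l* are known for high expression in embryos and proliferating cells, and several of these genes are known targets of the transcription factor ATF4.

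The libraries held 15567624 to 19875546 counts, and the 10 genes took 0.0358% to 0.0381% of them in WT and 0.0412% to 0.0423% in KO hearts. Levels are given in CPM, a gene's count divided by its library's total after edgeR's TMM scaling. On the totals before that scaling, 3 counts equal 0.151 to 0.193 CPM, for counting error only. Because the column names give only the genotype, letters a to c were assigned within each genotype in column order. WT c stood apart from the other WT libraries: the chi-square per degree of freedom was 3.76 against WT a and 3.24 against WT b, where WT a and b gave 1.56 and the KO pairs 1.62 to 1.88. *Pkm*, the targeted gene, had a WT mean of 1318 ± 41.1 CPM and a KO mean of 542 ± 10.1 CPM (SD, n = 3 each) and a log2 fold change of -1.28 (adjusted p = 1.47e-23 by edgeR). Counts per gene do not separate the *Pkm1* and *Pkm2* transcripts. The paper reports no compensatory rise of PKM2, and its discussion says that PKM2 was lower too and that the phenotype may involve this. The groups also differed in sex: *Xist*, expressed from the inactive X chromosome, averaged 5.26 CPM in WT and 2285 CPM in KO. *Ddx3y* of the Y chromosome averaged 93.5 CPM in WT and had 0 counts in every KO library. On the totals before TMM scaling, 0 counts allow up to 0.161 to 0.193 CPM. The 10 genes lie on autosomes, but genotype and sex cannot be told apart here. In bulk tissue, fewer cells of a type and less RNA per cell cannot be told apart either.

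Of the 10 enzymes, 5 rose in KO hearts and 0 fell at an adjusted p under 0.05. The 5 were *Phgdh* of serine synthesis and 4 of the 5 mitochondrial folate enzymes, *Shmt2*, *Mthfd2*, *Mthfd1l* and *Aldh1l2*, with rises of 1.10-fold to 1.35-fold. Neither cytosolic enzyme passed the test. Over all 13804 genes tested, 14.6% were called higher and 15.7% lower, 30.3% in either direction, by edgeR's quasi-likelihood test (Benjamini-Hochberg adjusted). The median log2 fold change of the 10 was 0.15, beside 0.00172 over all genes tested. A change of at least 1.5-fold was reached by 0 of the 10, and 6.19% of all genes were called at that size. By position alone, every KO library lay above every WT library for those 5 enzymes, beside 21.0% of all genes, and below for 1 enzyme, *Psat1*, beside 21.4%.

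**Figure D1:**
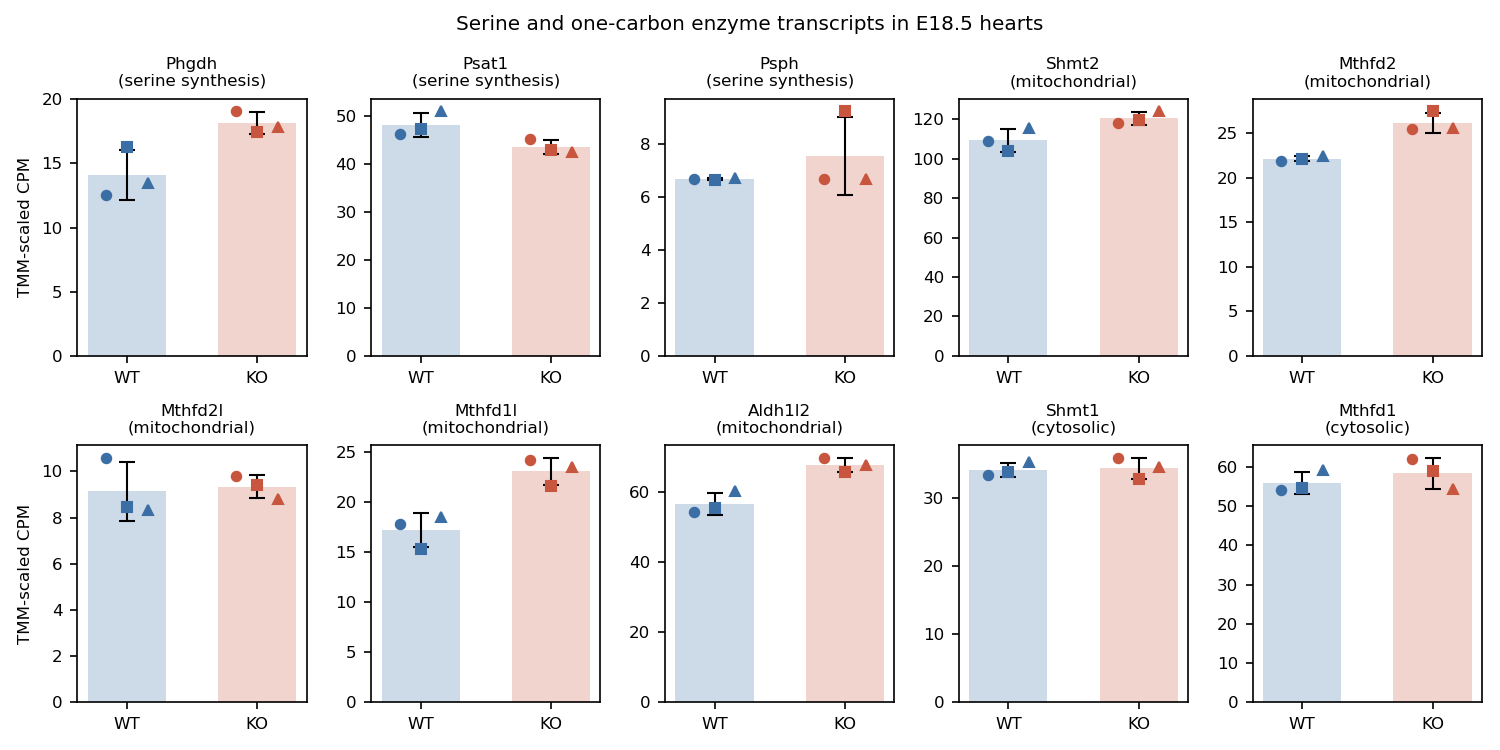
TMM-scaled CPM (vertical axes, each starting at 0) of the 10 enzymes in each WT and KO library, with circle, square and triangle for libraries a, b and c, bars for group means and error bars for the SD (n = 3). The KO points of *Phgdh*, *Shmt2*, *Mthfd2*, *Mthfd1l* and *Aldh1l2* lie above all WT points, those of *Psat1* lie below them, and the groups overlap for the other 4.

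Of the 3 serine synthesis enzymes, 1 rose and the other 2 were not called, beside 14.6% of all genes called higher and 15.7% lower. *Phgdh*, which catalyses the first and committed step, was at 12.6, 16.3 and 13.5 CPM in WT a, b and c and at 19.1, 17.4 and 17.9 CPM in KO a, b and c. The lowest KO library, KO b, was 1.07 times the highest WT library, WT b, so the groups did not overlap but nearly met. The means were 14.1 ± 1.94 and 18.1 ± 0.852 CPM (SD, n = 3 each), a 1.28-fold rise with a log2 fold change of 0.36 (SE 0.0922, adjusted p = 0.00432 by edgeR). The gene's exons share much sequence with other genes: 47.8% of its 50-base words also occur in 23 other annotated genes, 20 of them pseudogenes. The level of *Phgdh* is therefore uncertain, since how the authors' counting treated reads with several matches is not given in the sources used here.

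*Psat1*, the aminotransferase of the next step, was at 46.2, 47.3 and 51.0 CPM in WT and at 45.2, 43.0 and 42.6 CPM in KO libraries. Each KO library was lower than each WT library, but by a small margin. The means were 48.2 ± 2.54 and 43.6 ± 1.39 CPM (SD, n = 3 each), and the log2 fold change of -0.14 (95% interval -0.26 to -0.03) missed the threshold with an adjusted p of 0.0571 by edgeR. It passed with edgeR's exact test (adjusted p = 0.0416) and without WT a (edgeR's adjusted p = 0.0410), so its call depends on the test and on 1 library. *Psph* codes for the phosphatase that releases serine and was at 6.66, 6.63 and 6.70 CPM in WT and 6.68, 9.22 and 6.66 CPM in KO. The groups overlapped, and KO b alone was high. Its log2 fold change was 0.16 (95% interval -0.11 to 0.44, adjusted p = 0.388 by edgeR), and 0.000486 without KO b. Summed over the 3 genes, serine synthesis had means of 68.9 ± 3.08 (WT) and 69.2 ± 1.94 CPM (KO) (SD, n = 3 each), a ratio of 1.00.

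Of the 5 mitochondrial folate enzymes 4 rose, and *Mthfd2l* was not called, beside 14.6% of all genes called higher and 15.7% lower. *Shmt2* codes for the mitochondrial serine hydroxymethyltransferase, the entry of serine carbon into this branch, and had the highest level of the 10 by CPM per kb of exon. Its levels were 108.8, 103.9 and 115.6 CPM in WT and 118.0, 119.5 and 124.1 CPM in KO libraries, which did not overlap, although KO a lay only 1.02 times above WT c. The 1.10-fold rise was the smallest that was called, at a log2 fold change of 0.14 (SE 0.0422, adjusted p = 0.0119 by edgeR). The call was lost without WT b (log2 fold change 0.10, adjusted p = 0.116 by edgeR) and without KO c (0.12, adjusted p = 0.0797 by edgeR).

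*Mthfd2* makes the bifunctional dehydrogenase and cyclohydrolase that oxidises methylene-tetrahydrofolate in mitochondria. It was at 21.8, 22.1 and 22.5 CPM in WT, the tightest WT group among the 5 that rose, and at 25.4, 27.5 and 25.5 CPM in KO libraries. Every KO library exceeded every WT library, the lowest by 1.13 times. The rise corresponds to a log2 fold change of 0.24 (SE 0.0685, adjusted p = 0.00975 by edgeR). Without KO b the log2 fold change was 0.20 and the adjusted p by edgeR 0.0565, which missed the threshold. *Mthfd2l*, the related dehydrogenase of the same compartment, was at 10.6, 8.47 and 8.34 CPM in WT and at 9.80, 9.41 and 8.80 CPM in KO. The groups overlapped, with WT a highest, and the log2 fold change of 0.03 (95% interval -0.20 to 0.26, adjusted p = 0.867 by edgeR) turned negative when WT b, WT c or KO a was left out.

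*Mthfd1l*, whose product releases formate from 10-formyl-tetrahydrofolate, had the largest fold change of the 10. Its levels were 17.8, 15.3 and 18.5 CPM in WT and 24.2, 21.6 and 23.5 CPM in KO libraries. The groups did not overlap, with the lowest KO library at 1.17 times the highest WT library. The means of 17.2 ± 1.68 and 23.1 ± 1.35 CPM (SD, n = 3 each) gave a 1.35-fold rise and a log2 fold change of 0.44 (SE 0.0815, adjusted p = 1.80e-04 by edgeR). None of its 50-base words occurred in another annotated gene.

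*Aldh1l2* encodes the mitochondrial 10-formyl-tetrahydrofolate dehydrogenase, which oxidises the carbon unit to carbon dioxide and yields NADPH. It was at 54.3, 55.2 and 60.1 CPM in WT and at 69.7, 65.7 and 67.6 CPM in KO libraries, again without overlap, with the lowest KO library at 1.09 times the highest WT library. The rise was 1.20-fold, at a log2 fold change of 0.26 (SE 0.0507, adjusted p = 2.59e-04 by edgeR). Its exons overlap those of *D10Wsu102e* on the opposite strand over 1056 bases, and the strand setting of the counting is not given in the sources used here, so reads in the overlap cannot be assigned with certainty. That partner was not called (log2 fold change -0.06, adjusted p = 0.582 by edgeR), with means of 23.3 (WT) and 22.3 CPM (KO).

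The cytosolic enzymes showed no called difference, beside 14.6% of all genes called higher and 15.7% lower. *Shmt1*, the cytosolic serine hydroxymethyltransferase, was at 33.4, 33.8 and 35.3 CPM in WT and at 35.9, 32.8 and 34.5 CPM in KO. The log2 fold change was 0.01 (95% interval -0.11 to 0.14, adjusted p = 0.889 by edgeR), and the KO libraries spanned the WT libraries on both sides. *Mthfd1*, the trifunctional cytosolic enzyme that takes formate back onto tetrahydrofolate, was at 54.2, 54.5 and 59.1 CPM in WT and at 62.0, 58.9 and 54.2 CPM in KO. These overlapped too, with a log2 fold change of 0.06 (95% interval -0.05 to 0.18, adjusted p = 0.413 by edgeR). That interval holds the called estimate of *Shmt2*, 0.14, so *Mthfd1* is not set apart from it.

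**Figure D2:**
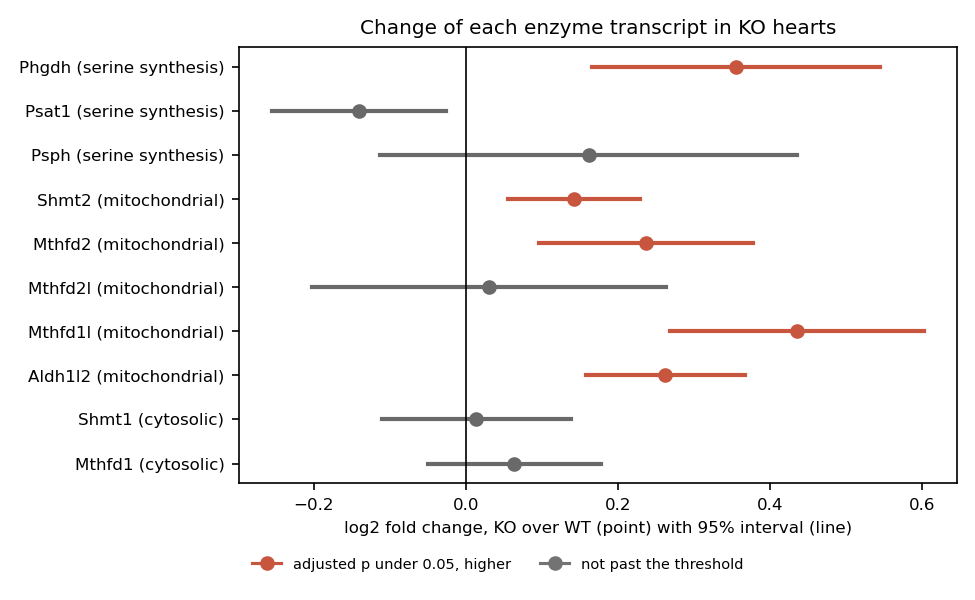
Log2 fold change of KO over WT for the 10 enzymes by role, with 95% intervals as lines, in red where the adjusted p was under 0.05 and in gray elsewhere. The 5 red points lie between 0.14 and 0.44, and the only estimate below 0 is that of *Psat1* at -0.14.

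Summed by compartment, the 5 mitochondrial enzymes were at 213, 205 and 225 CPM in WT and at 247, 244 and 250 CPM in KO, 1.15 times higher with no overlap. The 2 cytosolic enzymes summed to 87.5, 88.3 and 94.4 CPM in WT and 97.9, 91.6 and 88.7 CPM in KO, a ratio of 1.03 with overlap. *Shmt2*, at means of 109 (WT) and 121 CPM (KO), was the largest part of the mitochondrial sum. The sums were not tested. Ratios within a library do not depend on how libraries are scaled. They were taken on CPM, without gene length, to set WT beside KO, and were not tested. *Shmt2* was at 3.08 to 3.28 times the CPM of *Shmt1* in WT and at 3.29 to 3.65 times in KO, so the groups did not overlap but met closely. *Mthfd1l* was at 0.281 to 0.328 of *Mthfd1* in WT and 0.367 to 0.434 in KO, a difference of 0.37 on the log2 scale between groups that lay apart. *Mthfd2* over *Mthfd2l* ran from 2.06 to 2.69 in WT and from 2.60 to 2.92 in KO and overlapped. Its log2 difference of 0.20 was 0.08 without WT a. Within serine synthesis, *Phgdh* over *Psat1* was 0.264 to 0.345 in WT and 0.405 to 0.422 in KO, with a log2 difference of 0.51. This last ratio was chosen after the values were seen.

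**Figure D3:**
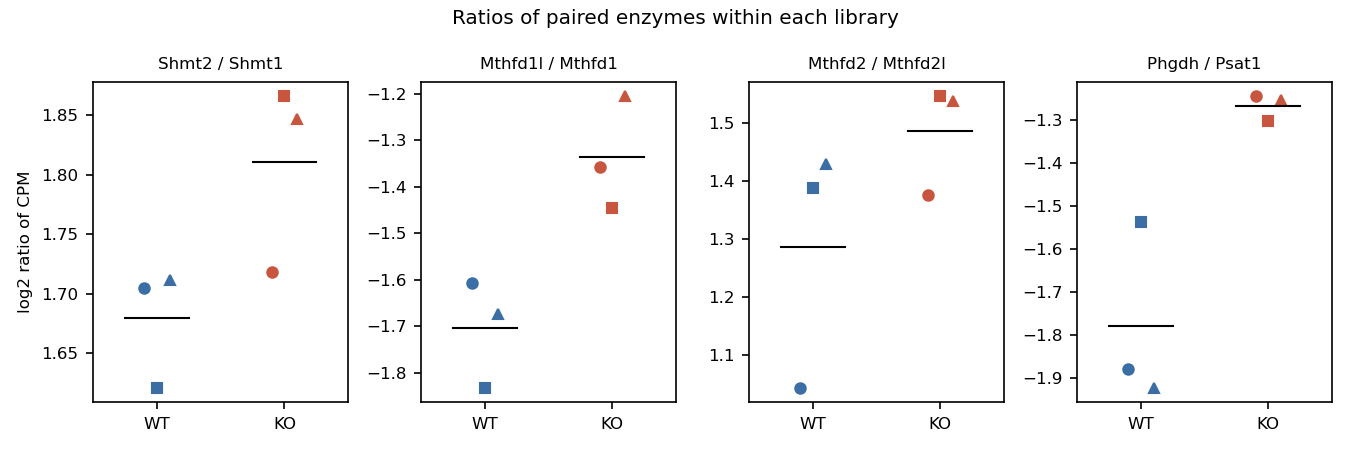
Log2 ratio of CPM between paired enzymes in each library, WT and KO side by side, with circle, square and triangle for libraries a, b and c and bars for group means. The KO points lie above the WT points for *Mthfd1l* over *Mthfd1*, *Shmt2* over *Shmt1* and *Phgdh* over *Psat1*, and overlap them for *Mthfd2* over *Mthfd2l*.

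Levels between genes were compared per kb of annotated exon length. *Shmt2* led in WT hearts at 47.5 ± 2.54 CPM per kb (SD, n = 3), followed by *Mthfd1* at 17.3 ± 0.857 and *Psat1* at 16.4 ± 0.866 CPM per kb, which overlapped each other. Below these came *Shmt1* at 11.9 ± 0.354, *Mthfd2* at 10.6 ± 0.153, *Aldh1l2* at 9.28 ± 0.516 and *Phgdh* at 7.45 ± 1.02 CPM per kb, neighbours whose WT ranges did not overlap. *Mthfd1l*, *Psph* and *Mthfd2l* closed the order at 4.03 ± 0.395, 3.85 ± 0.0197 and 3.39 ± 0.471 CPM per kb, and each overlapped the next. In KO hearts the order was the same except that *Mthfd2*, at 12.5 ± 0.549 CPM per kb, stood above *Shmt1* at 12.0 ± 0.543 CPM per kb, with overlapping libraries. The place of *Phgdh* in this order is not secure, since 47.8% of its 50-base words are shared with other genes and reads dropped there would lower its value per kb. That of *Psph* is not secure either, since its exons overlap those of *Cct6a* on the opposite strand over 452 bases.

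In the GRCm38 annotation the 10 genes lie on 7 chromosomes. *Phgdh* lies at chr3:98313170-98339990 and *Psat1* at chr19:15904678-15947337, both on the minus strand. *Shmt2* (chr10:127517123-127522444, minus), *Aldh1l2* (chr10:83487450-83534140, minus) and *Mthfd1l* (chr10:3973118-4167081, plus) share chromosome 10 but lie far apart on it. *Mthfd2* is at chr6:83305691-83325908 on the minus strand. *Psph* (chr5:129765558-129787449, minus) and *Mthfd2l* (chr5:90931117-91021368, plus) are on chromosome 5, *Shmt1* on chromosome 11 (chr11:60788104-60811718, minus) and *Mthfd1* on chromosome 12 (chr12:76255298-76319803, plus). Besides *Aldh1l2*, exons of *Psph*, *Shmt1*, *Mthfd1* and *Shmt2* overlap an opposite-strand gene, over 452, 184, 37 and 32 bases. *Cct6a*, the partner of *Psph*, had means of 158 (WT) and 153 CPM (KO), beside 6.67 and 7.52 CPM for *Psph*. *Smcr8*, the partner of *Shmt1*, had means of 50.7 and 54.3 CPM. Neither partner was called, and reads in these overlaps cannot be assigned with certainty either.

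Promoter sequence was compared because 5 genes on several chromosomes rose together. RefSeq (GRCm38.p6) gave a promoter for 9 of the 10 genes, and *Aldh1l2* had no entry. Shown are the 250 bases before the start, 5′ to 3′ on the gene's strand, of the other 4 genes that rose and of *Psat1*, the enzyme with the opposite sign, at the first of its 2 RefSeq starts. Capitals mark CCAAT, the box bound by NFY, or GGGCGG, the box bound by Sp factors, on either strand (ATTGG or CCGCCC when read from the other). The regions are chr3:98339970-98340219 (minus) for *Phgdh*, chr6:83317605-83317854 (minus) for *Mthfd2*, chr10:3972825-3973074 (plus) for *Mthfd1l*, chr10:127522445-127522694 (minus) for *Shmt2* and chr19:15925060-15925309 (minus) for *Psat1*.
Phgdh: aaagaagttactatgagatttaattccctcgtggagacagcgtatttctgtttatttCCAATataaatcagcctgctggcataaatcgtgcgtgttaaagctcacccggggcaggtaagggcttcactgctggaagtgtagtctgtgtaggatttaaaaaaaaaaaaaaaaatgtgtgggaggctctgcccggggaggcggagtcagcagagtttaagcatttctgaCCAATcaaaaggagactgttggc
Mthfd2: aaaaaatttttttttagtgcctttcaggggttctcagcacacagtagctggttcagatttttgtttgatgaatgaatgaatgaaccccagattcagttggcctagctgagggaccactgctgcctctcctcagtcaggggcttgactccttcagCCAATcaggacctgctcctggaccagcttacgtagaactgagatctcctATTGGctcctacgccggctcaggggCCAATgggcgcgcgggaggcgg
Mthfd1l: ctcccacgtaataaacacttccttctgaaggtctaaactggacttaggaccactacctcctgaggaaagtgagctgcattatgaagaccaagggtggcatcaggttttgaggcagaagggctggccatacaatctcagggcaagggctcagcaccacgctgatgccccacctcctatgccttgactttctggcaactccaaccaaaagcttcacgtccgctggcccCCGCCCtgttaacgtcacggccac
Shmt2: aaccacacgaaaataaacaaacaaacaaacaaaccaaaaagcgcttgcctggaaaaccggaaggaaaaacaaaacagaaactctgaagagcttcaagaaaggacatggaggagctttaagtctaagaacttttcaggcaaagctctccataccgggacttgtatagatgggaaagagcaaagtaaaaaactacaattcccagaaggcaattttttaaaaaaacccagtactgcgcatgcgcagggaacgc
Psat1: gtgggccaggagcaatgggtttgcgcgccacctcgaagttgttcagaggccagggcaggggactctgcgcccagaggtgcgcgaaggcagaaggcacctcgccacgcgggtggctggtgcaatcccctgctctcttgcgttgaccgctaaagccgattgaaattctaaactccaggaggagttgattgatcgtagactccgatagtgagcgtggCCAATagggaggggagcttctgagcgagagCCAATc

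Within 250 bases before and 50 after the start, CCAAT was found on either strand for 6 of the 9 genes, *Phgdh*, *Psat1*, *Psph*, *Shmt1*, *Mthfd1* and *Mthfd2*, where 37.4% of all 32851 promoters hold it. Among the genes that rose, *Mthfd2* had 3 matches, all within 96 bases of the start, *Phgdh* had 2, and *Shmt2* and *Mthfd1l* had 0. The GGGCGG box was found for 6 of 9 genes, beside 35.7% of all promoters, and for 5 of 9 in the 250 bases before the start alone, beside 32.7%. These counts take a gene with a match at any of its starts, while the shares are over single promoters. Its carriers were *Psph*, *Shmt1*, *Mthfd1*, *Mthfd1l*, *Mthfd2l* and the second start of *Psat1*. Neither TGATGNAA, the composite element bound by ATF4 with C/EBP partners, nor CACGTG, the E-box of MYC and related factors, was found in any of the 9, while 3.97% and 7.15% of all promoters hold them. In the 9 genes, matches to different motifs did not overlap. A match is a description of letters, and a lack of one says only that these letters are not in this window. Both boxes occurred in genes that rose and in genes that were not called.

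**Figure D4:**
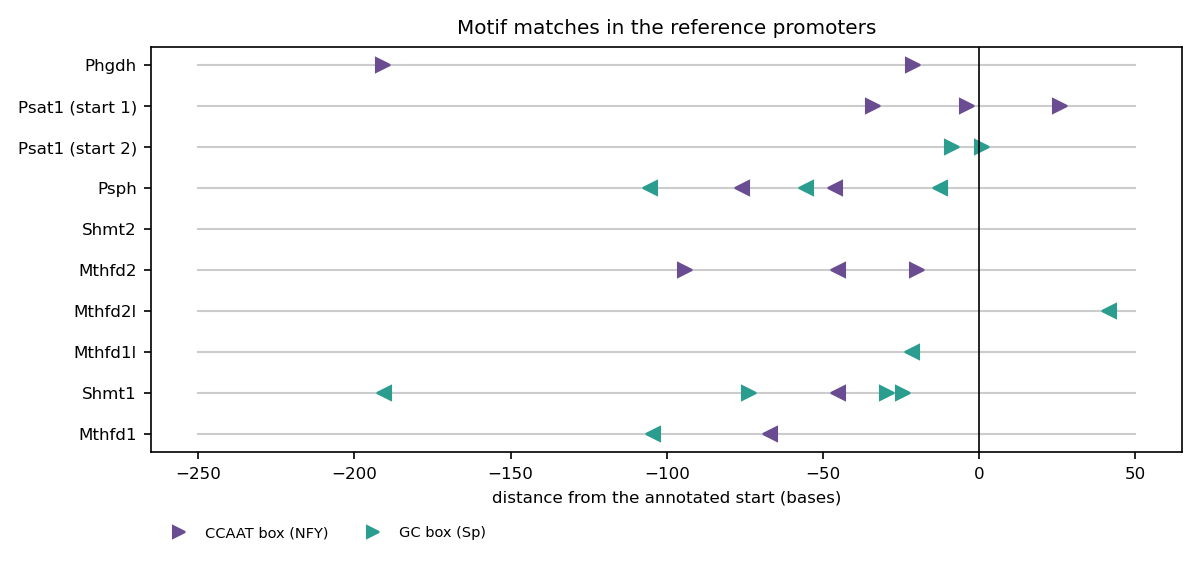
Positions of CCAAT and GGGCGG matches on either strand, in bases from the RefSeq start (horizontal axis, 250 before to 50 after), for the members with a promoter entry, 1 row per start, with purple for CCAAT, green for GGGCGG and arrowheads for the strand. *Mthfd2* shows 3 CCAAT matches, *Phgdh* 2, *Mthfd1l* a GGGCGG match and no CCAAT match, and *Shmt2* none of either.

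The enzymes around these 10 were taken by list, and no list was tested as a set. Each list or marker count below stands beside 14.6% of all genes called higher and 15.7% called lower. Among 14 tested genes of folate uptake, storage and interconversion, 0 were higher and 3 lower, with a median log2 fold change of -0.000649. *Aldh1l1*, the cytosolic counterpart of *Aldh1l2*, fell from 6.72 ± 0.446 to 4.88 ± 0.369 CPM (SD, n = 3 each), at a log2 fold change of -0.47 (adjusted p = 0.00934 by edgeR). This is the opposite direction to its mitochondrial relative. *Ftcd*, which feeds histidine carbon into folate, had a log2 fold change of -0.41 (adjusted p = 0.00396 by edgeR), and *Sfxn3*, a mitochondrial serine carrier, one of -0.24 (adjusted p = 0.0244 by edgeR) that was lost with DESeq2 and without WT b, KO b or KO c. *Aldh1l1* and *Ftcd* are abundant in liver, and liver markers moved with them: 4 of 6 were tested, all 4 fell, and their sum was 24.2 to 31.3 CPM in WT and 10.4 to 11.3 CPM in KO. Of its defining genes, *Alb* went from 10.9 to 3.26 CPM and *Afp* from 10.8 to 5.63 CPM. The part of liver RNA in the *Aldh1l1* and *Ftcd* values was not tested.

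Of the 8 genes that use folate carbon for purines and thymidylate, 2 rose and 0 fell, with a median log2 fold change of 0.04. Over all genes tested, 14.6% were called higher and 15.7% lower. *Atic*, which adds the last formyl group of purine synthesis, rose from a mean of 42.0 to one of 49.6 CPM (log2 fold change 0.24, adjusted p = 0.00146 by edgeR). *Pfas*, an earlier purine enzyme, had a log2 fold change of 0.15 (adjusted p = 0.0446 by edgeR) with overlapping groups, and missed the threshold with DESeq2 and when any library other than WT a was left out. Of the 3 tested genes of the glycine cleavage system, 0 were called. In the methionine cycle and transsulfuration, 1 of 8 tested genes rose and 2 fell, with a median of -0.00382. *Mat2a*, which makes S-adenosylmethionine, rose from 146 to 188 CPM with no overlap (log2 fold change 0.36, adjusted p = 1.32e-08 by edgeR). *Mtr*, the methionine synthase that takes a methyl group from folate, fell from 76.7 to 64.4 CPM (-0.25, adjusted p = 1.83e-04 by edgeR), and *Ahcyl1* fell by 0.15 on the log2 scale (adjusted p = 0.00245 by edgeR). *Ahcy*, from which *Ahcyl1* takes its name, was not called (-0.04, adjusted p = 0.670 by edgeR).

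The genes that move serine and glycine or use them had the highest median of the neighbouring lists, 0.19. Of these 12, 4 were higher and 1 lower, beside 14.6% higher and 15.7% lower over all genes tested. *Slc1a4* and *Slc1a5*, carriers of neutral amino acids that take serine, rose at log2 fold changes of 0.44 (adjusted p = 0.00241 by edgeR) and 0.27 (adjusted p = 2.06e-04 by edgeR). *Slc1a4* was at 7.99, 9.08 and 8.48 CPM in WT and 10.6, 12.9 and 11.4 CPM in KO libraries, which did not overlap. *Ptdss2*, which exchanges serine into phosphatidylserine, and the carrier *Slc38a1* rose at 0.27 and 0.25. *Slc38a2*, a further neutral amino acid carrier, fell from 851 to 720 CPM (-0.24, adjusted p = 1.49e-06 by edgeR), so the carriers moved in both directions.

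**Figure D5:**
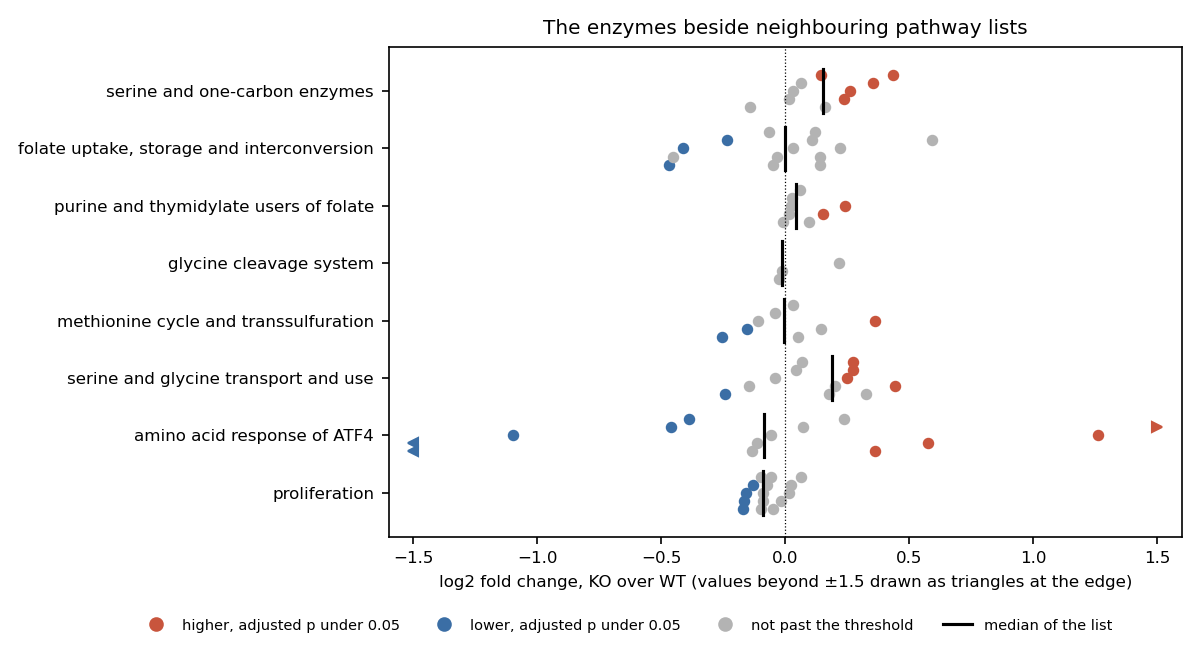
Log2 fold change of KO over WT for every tested gene of the 10 enzymes and of the neighbouring lists, 1 row per list, with red (higher) and blue (lower) points where the adjusted p was under 0.05, gray points elsewhere, triangles at the edge for values beyond ±1.5 and a bar at each median. The enzymes' median is 0.15 and those of the other lists run from -0.09 to 0.19.

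Genes of the amino acid response controlled by ATF4, the factor known to act on several of the 10 enzymes, were called in both directions. Of 14, 4 rose and 5 fell, with a median of -0.09, beside 14.6% higher and 15.7% lower over all genes tested. *Atf4* itself was at 99.8, 101 and 113 CPM in WT and 78.7, 70.5 and 78.0 CPM in KO libraries, without overlap, at a log2 fold change of -0.46 (SE 0.0505, adjusted p = 6.95e-08 by edgeR). *Asns*, the asparagine synthetase, was at 13.0, 11.8 and 13.7 CPM in WT and 20.9, 17.7 and 18.5 CPM in KO (0.57, adjusted p = 1.72e-05 by edgeR). *Chac1*, *Trib3* and *Slc7a5* rose as well, at 2.61, 1.26 and 0.36, with *Chac1* at only 5 counts in each WT library. The others that fell were *Atf3*, *Slc7a11*, *Cebpb* and *Slc3a2*, at -3.12, -2.45, -1.10 and -0.39. *Slc7a11* had only 8, 5 and 9 counts in KO a, b and c. Protein levels are not part of these data.

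Among 15 proliferation genes 0 rose and 4 fell, with a median log2 fold change of -0.09, while *Mthfd2* and *Mthfd1l*, which are known to follow proliferation, rose. The shares over all genes tested were 14.6% higher and 15.7% lower, for these and for the marker counts below. *Mki67*, a marker of cycling cells, fell from 615 to 546 CPM (-0.17, adjusted p = 7.92e-05 by edgeR). *Rrm2* and *Ccna2* fell by 0.17 and 0.16 on the log2 scale, and *Mcm4*, at -0.13, lost its call under 6 of the 14 alternatives. The number that fell was 9 without WT c, where the 10 enzymes still had 5 higher and 0 lower. Markers of several cell types moved with genotype too. The 7 cardiomyocyte markers summed to 50314 to 53848 CPM in WT and 45372 to 46327 CPM in KO, with 1 higher and 6 lower. Of 6 tested atrial markers 3 rose, and the sum went from 595 to 601 CPM in WT to 1006 to 1030 CPM in KO. Endothelial and fibroblast markers each had 3 lower of 6 and of 7, and epicardial markers 2 higher of 5. Smooth muscle markers had 1 higher and 1 lower of 4, and erythroid markers 1 higher and 1 lower of 3 tested. Immune markers had 0 higher and 1 lower of 6. The part of cell composition in the values of the 10 enzymes was not tested.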

How the data were processed

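RNA-seq of hearts at embryonic day 18.5 was analysed in 3 WT and 3 KO libraries. For each gene symbol the authors deposited unnormalized read counts, 1 column per library. Per the study's methods and the submitters' processing notes, reads were trimmed with cutadapt 1.18, aligned to mm10 with HISAT2 and assembled with StringTie. The counting program is not given in the sources used here. The same table holds the authors' own comparison (log2 fold change, average log2 CPM, p-value and false discovery rate), which was not used.

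Counts were filtered with filterByExpr (13804 of 13809 genes kept), scaled with TMM and tested with edgeR's quasi-likelihood method on genotype alone, with p-values adjusted after Benjamini-Hochberg over all genes kept (R 4.3.3, edgeR 4.0.16). A gene was called at an adjusted p under 0.05. SE and 95% intervals are on the log2 scale. The libraries are separate biological replicates per the study's methods, and p-values measure the spread between them. That spread was small, with a common biological coefficient of variation of 3.42%. Whether it is the spread between single embryos is unknown, since the embryos behind a library are not given. The fit was tested on simulated data.

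The 10 members and all gene lists were chosen with earlier results of these data known. The genes named are the members, *Pkm*, *Atf4*, and from each list up to 3 called genes per direction, by size of fold change. Where a list had 4 or 5 called in a direction, the others were named after their values were seen, as were *Alb*, *Afp* and *Ahcy*. *Xist* and *Ddx3y* were named as the sex check, and genes overlapping a member's exons as a limit on its counts. Alternatives were RLE size factors, DESeq2 1.42.0, edgeR's exact test, voom of limma 3.58.1, no filter, at least 10 counts in every library, TMM without *Rn45s*, X and Y genes left out, and each library left out. Promoters came from RefSeq (250 bases before to 50 after each start). Figures were drawn with matplotlib 3.10.9 (Python 3.11.15).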

Additional observations from a re-analysis of the deposited data

How the results depend on the processing

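*Phgdh*, *Mthfd1l* and *Aldh1l2* kept direction and call under all 14 alternatives, with log2 fold changes of 0.27 to 0.48, 0.35 to 0.49 and 0.23 to 0.31. The number of the 10 enzymes called higher was 4 or 5 throughout. The number called lower was 1, *Psat1*, with edgeR's exact test, and 0 to 1 with a library left out. With a library left out, the log2 fold change ran from -0.0182 to 0.0451 for *Shmt1* and from -0.0300 to 0.149 for *Mthfd2l*. In the same settings the genes called higher numbered 0 to 1 among folate uptake genes and 1 to 2 among purine and thymidylate genes (1 with DESeq2), and those called lower 1 to 2 among serine and glycine transport genes and 3 to 9 among proliferation genes. Over all genes, DESeq2 called 1639 lower and 1362 higher, beside 2168 and 2011 in the report. The causes were not tested.

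No paired analysis was possible because no column name holds a replicate number. With 3 libraries per group, *Psph* and *Mthfd2l* were at under 11 CPM, and their intervals reached up to 0.44 and 0.26. Changes of *Psph* as large as those called for other members are therefore undetermined. For *Mthfd2l* this holds for changes the size of *Shmt2* and *Mthfd2*, 0.14 and 0.24. Its interval ends near the estimate of *Aldh1l2*, 0.26, and below those of *Phgdh* and *Mthfd1l*, 0.36 and 0.44.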
